A study of Mus musculus with 10 samples.

Results

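The genes described here build and drive the meiotic chromosome: Sycp1, Sycp3, Hormad1, Stag3, Rec8, Smc1b, Dmc1, Spo11, Stra8 and Msh4. Their members in the data were all CpG cytosines of the methylation table that lay within 1000 b on either side of any annotated transcription start of these genes, in the mm10 genome with GENCODE M21 starts. That gave 196 of the 1348062 CpGs analysed, in 8 of the 10 genes. Rec8 and Dmc1 had no CpG in the table, the closest one lying 3226 b from the outermost Rec8 start and 12217 b from the outermost Dmc1 start.

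The study asked whether exposure to inorganic arsenic before birth alters the DNA methylation of male germ cells while it is being rebuilt. Pregnant C3H/HeN mice drank tap water (control) or tap water with 85 ppm sodium arsenite (arsenic) from gestational day 8 to day 18. On day 18, 36 testes of 18 fetuses were combined into each pool, and prospermatogonia were enriched from it with magnetic beads against the surface protein Thy1, so each pool can hold other testis cells too. Reduced representation bisulfite sequencing, which reads CpGs beside cut CCGG sites, was then run on 5 control pools and 5 arsenic pools. The methylation level of a CpG is the percentage of its reads that stayed unconverted, and the level of a promoter is the unweighted mean over its CpGs.

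Prospermatogonia are the resting male germ cells of the late fetal testis. Their precursors lose nearly all DNA methylation. Per the study, a new pattern is laid down from the late fetal stage into the first days after birth, ahead of the meiotic divisions. Many meiosis genes are kept silent in somatic cells by DNA methylation of a CpG-containing promoter, together with repressors that recognise E-box and E2F letters in the DNA. During meiosis the cohesin subunits Stag3, Rec8 and Smc1b hold sister chromatids together, Hormad1 and Sycp3 build the chromosome axis, Sycp1 zips paired axes into the synaptonemal complex, Spo11 cuts the DNA, Dmc1 pairs the cut ends with the other parental copy, and Msh4 marks sites that become crossovers. Stra8 is the retinoic acid target that switches germ cells into this programme.

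The stretches below hold the CpGs on which the levels rest. They are given 5′ to 3′ on the strand of the gene, read from the GRCm38 genome, and capitals mark the CpGs that the table read on either strand. The stretches were picked after the levels were known, as the part of each run of CpGs with the most of them. The genome is of a strain other than the one sequenced, so a base that differs in C3H/HeN mice would not show here.
Hormad1, upstream of its start, chr3:95559554-95559673: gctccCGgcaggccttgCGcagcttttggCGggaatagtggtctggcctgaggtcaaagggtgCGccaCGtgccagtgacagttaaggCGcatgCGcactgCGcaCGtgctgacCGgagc
Stag3, upstream of its start, chr5:138280049-138280138: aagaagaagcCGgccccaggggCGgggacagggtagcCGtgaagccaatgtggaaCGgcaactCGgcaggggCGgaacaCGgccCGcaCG
Stag3, intron, chr5:138281025-138281114: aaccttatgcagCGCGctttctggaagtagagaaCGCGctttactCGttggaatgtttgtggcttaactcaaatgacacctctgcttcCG
Smc1b, at its start, chr15:85131947-85131976: CGggagcaCGaggaagCGgctgaggcaCGg
Smc1b, intron, chr15:85131731-85131820: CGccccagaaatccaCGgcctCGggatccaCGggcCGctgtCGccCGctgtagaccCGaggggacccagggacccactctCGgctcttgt
Sycp1, intron, chr3:102935347-102935426: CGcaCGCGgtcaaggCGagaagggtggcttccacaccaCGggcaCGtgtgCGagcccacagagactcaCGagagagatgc
Sycp3, intron, chr10:88459834-88459963: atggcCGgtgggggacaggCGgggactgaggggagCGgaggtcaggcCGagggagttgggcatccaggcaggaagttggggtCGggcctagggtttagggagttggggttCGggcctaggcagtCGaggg
Stra8, intron, chr6:34921182-34921311: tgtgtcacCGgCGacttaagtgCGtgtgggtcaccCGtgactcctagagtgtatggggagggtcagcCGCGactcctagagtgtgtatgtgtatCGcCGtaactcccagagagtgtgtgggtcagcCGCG
Spo11, intron, chr2:172980154-172980213: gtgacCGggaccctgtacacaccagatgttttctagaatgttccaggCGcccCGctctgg
Msh4, first coding exon, chr3:153905728-153905797: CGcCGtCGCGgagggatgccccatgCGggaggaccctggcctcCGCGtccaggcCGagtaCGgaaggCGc

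The table held reads of 44207245 to 66570870 per pool summed over CpGs, with a median coverage of 25 to 40 reads. The mean level over all CpGs was lowest in arsenic 1 (42.1%) and highest in arsenic 5 (47.3%), and the other 8 pools lay between 45.2% and 46.7%. All values are from reads without molecular identifiers, so intervals cover counting error only. At the lowest coverage, 10 reads, a level of 50% has a 95% Wilson interval of 23.7% to 76.3%. For the member CpGs the median of the lowest coverage was 15.5 reads. P-values measure the spread between pools of embryos, except those of the logistic regression on single CpGs, which adds the reads of a group together. Fewer cells of a type cannot be told apart from a changed level within a cell.

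As means over the CpGs read in their windows, the 8 promoters were partly methylated in both groups, between 20.4% for Smc1b and 64.2% for Spo11 over the 10 pools. All 8 lay between 20% and 80%, a range that held 27.7% of the 19338 gene promoters with 5 or more CpGs. The median of those promoters was 4.48%, so the members stood at percentiles 68.1 to 88.3. Levels fell in the order Spo11, Hormad1, Stra8, Sycp1, Msh4, Sycp3, Stag3 and Smc1b. From Spo11 down to Sycp3 each gene's control pools overlapped those of the next. The Stag3 pools lay below all Sycp3 pools of the same group. The Stag3 and Smc1b pools overlapped in the arsenic group but not among controls. The order depends on which CpGs were read, from 3.85% of the CpG cytosines in the Spo11 windows to 23.3% in Hormad1. The Stag3 and Smc1b means mix unmethylated and methylated parts. Upstream of Stag3, 28 CpGs averaged 0.738%, and 4 CpGs at the Smc1b start averaged 0.623%. For Sycp1 the nearest CpG read was 599 b from a start. For Sycp3, Stra8, Spo11 and Msh4 every CpG read lay after the nearest start, at the closest by 175, 61, 230 and 141 b. The levels and percentiles thus describe the CpGs read in the windows and not the starts themselves.

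**Figure D1:**
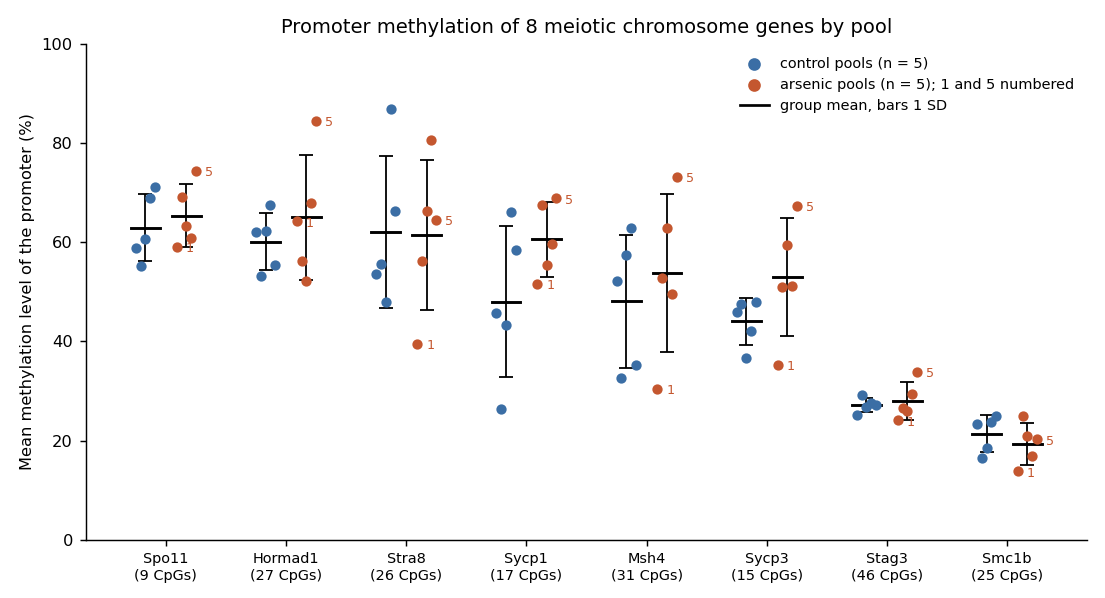
Mean methylation level (%) of the 8 promoters with CpGs in the table, 1 point per pool, for 5 control and 5 arsenic pools, with the group mean and bars of 1 SD. The groups overlap in every gene, Stag3 and Smc1b sit lowest, and arsenic 5 is the highest pool in 6 of the 8 genes.

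No member promoter passed a test between the groups. In a limma fit over log ratios of methylated to unmethylated reads in all 22986 gene promoters, 0 of the 8 members and 0 (0%) of all promoters had an adjusted p below 0.05, and the smallest adjusted p was 0.901 among members and 0.489 overall. At an unadjusted limma p below 0.05 the counts were 0 members against 5.45% of all promoters. The two-sided exact permutation test of each promoter's level over the 10 pools gave p below 0.05 for 0 members and 6.21% of all promoters. Groups that did not overlap were found in 0 members and in 1.07% of all promoters. With 5 pools against 5, the smallest p this permutation test can give is 0.00794. The member means were higher in the arsenic group in 6 of 8 genes, with a median difference of 3.66 percentage points, beside 50.7% of all promoters and a median difference of 0.0171 points. Without arsenic 5, 5 of 8 were higher and the median difference was 0.0851 points. It was 1.597 points without control 2 and 6.15 points without control 4.

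Sycp1, the transverse filament of the synaptonemal complex, showed the widest difference between the group means with all pools and CpGs of at least 10 reads. Its level over 17 CpGs was 45.7%, 26.4%, 43.3%, 66.1% and 58.4% in controls 1 to 5 and 51.6%, 67.5%, 55.4%, 59.7% and 68.9% in arsenic 1 to 5. Control 2 was the lowest pool, and control 4 exceeded 3 of the arsenic pools. The means were 48.0% ± 15.3 (SD, n = 5) and 60.6% ± 7.52 (SD, n = 5), a difference of 12.6 points (exact permutation p = 0.143, limma adjusted p = 0.901). All 5 arsenic pools were above the control mean, but the groups overlapped. Without control 2 the difference was 7.22 points, below that of Sycp3 (9.72 points). At a coverage of at least 30 reads it was 3.50 points over 3 CpGs. The 17 CpGs fell into 12 in the intron, at 665 to 988 b after the nearest start, and 5 upstream, at 599 to 699 b before it. In the intron the level was 17.4% in control 2 and 43.9% to 69.5% in the other controls, against 57.9% to 76.5% in the arsenic pools. In the upstream part the group means were 45.1% ± 8.10 and 48.2% ± 14.99 (SD, n = 5 each).

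Sycp3, a component of the chromosome axis, had its 15 CpGs in the intron at 175 to 463 b from the nearest start. The control levels were 46.0%, 47.5%, 36.7%, 42.2% and 47.9%, and the arsenic levels were 35.3%, 51.0%, 59.5%, 51.3% and 67.3%. Arsenic 1 was the lowest of the 10 pools, and the other 4 arsenic pools were above every control. The means, 44.0% ± 4.68 and 52.9% ± 11.9 (SD, n = 5 each), differed by 8.86 points (exact permutation p = 0.159, limma adjusted p = 0.916). Leaving out arsenic 1 gave 13.3 points and leaving out arsenic 5 gave 5.25 points.

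Hormad1, an axis protein that monitors pairing, carried 27 CpGs, all upstream of its start. Its levels were 62.1%, 53.2%, 62.2%, 67.6% and 55.4% in controls and 64.2%, 56.3%, 52.2%, 67.9% and 84.6% in arsenic pools. Arsenic 5 stood above all others, and arsenic 3 was the lowest. The difference of the means was 4.92 points (60.1% ± 5.79 and 65.0% ± 12.6, SD, n = 5 each; exact permutation p = 0.484, limma adjusted p = 0.917) and 0.0402 points without arsenic 5. The 17 CpGs at 8 to 118 b before the start averaged 64.2%, and the 10 at 306 to 450 b before it averaged 59.8%. Methylation thus reached to within 8 b of the Hormad1 start.

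The cohesin genes Stag3 and Smc1b were read on both sides of a start. Sycp3, Spo11, Stra8 and Msh4 were read only after a start, so their layout cannot be compared with these. Stag3 had 28 upstream CpGs at 38 to 473 b before the start, with 6.08% in the highest, with group means of 0.742% ± 0.307 in controls and 0.734% ± 0.217 in arsenic pools (SD, n = 5 each). Its 17 intronic CpGs at 238 to 558 b after a start averaged 66.7% ± 4.00 and 68.8% ± 10.04 in the same groups. These intronic values were 60.6%, 71.8%, 66.4%, 67.5% and 67.1% in controls and 58.7%, 64.6%, 64.1%, 71.9% and 84.7% in arsenic pools. Arsenic 5 was highest and arsenic 1 lowest. A single coding-exon CpG near another Stag3 start read 95.5%. In every pool the change from unmethylated to methylated thus lay between the last upstream CpG, 38 b before the outermost start, and the first intronic one, 238 b after a further start. The unmethylated stretch is shared with the divergent gene Gpc2, whose starts lie 235 to 278 b upstream on the other strand. The gene-level mean of 27.6% is a mixture of these parts (difference 0.766 points, exact permutation p = 0.730, limma adjusted p = 0.963).

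Smc1b, the meiotic form of an SMC cohesin subunit, had a like step. The 4 CpGs from 11 b before to 16 b after its start averaged 0.623%, and 5 CpGs at 203 to 268 b before it averaged 4.26%. The divergent gene Ribc2 starts 114 and 139 b upstream of Smc1b, on the other strand. The 16 intronic CpGs at 145 to 274 b averaged 32.1% ± 5.76 in controls and 28.7% ± 6.47 in arsenic pools (SD, n = 5 each), and single ones ran from 4.92% to 66.8%. The promoter levels were 23.4%, 16.4%, 18.5%, 23.8% and 25.0% in controls and 13.8%, 25.0%, 21.0%, 16.95% and 20.3% in arsenic pools. The groups overlapped over most of their range, with arsenic 1 lowest. The mean level was 2.00 points lower in arsenic pools by the plain mean over CpGs (exact permutation p = 0.429), while the limma difference of the log2 ratio had the opposite sign, 0.07 (adjusted p = 0.985). Rec8, the kleisin of the same complex, could not be compared: its windows held 8 CCGG sites but no CpG of the table.

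**Figure D2:**
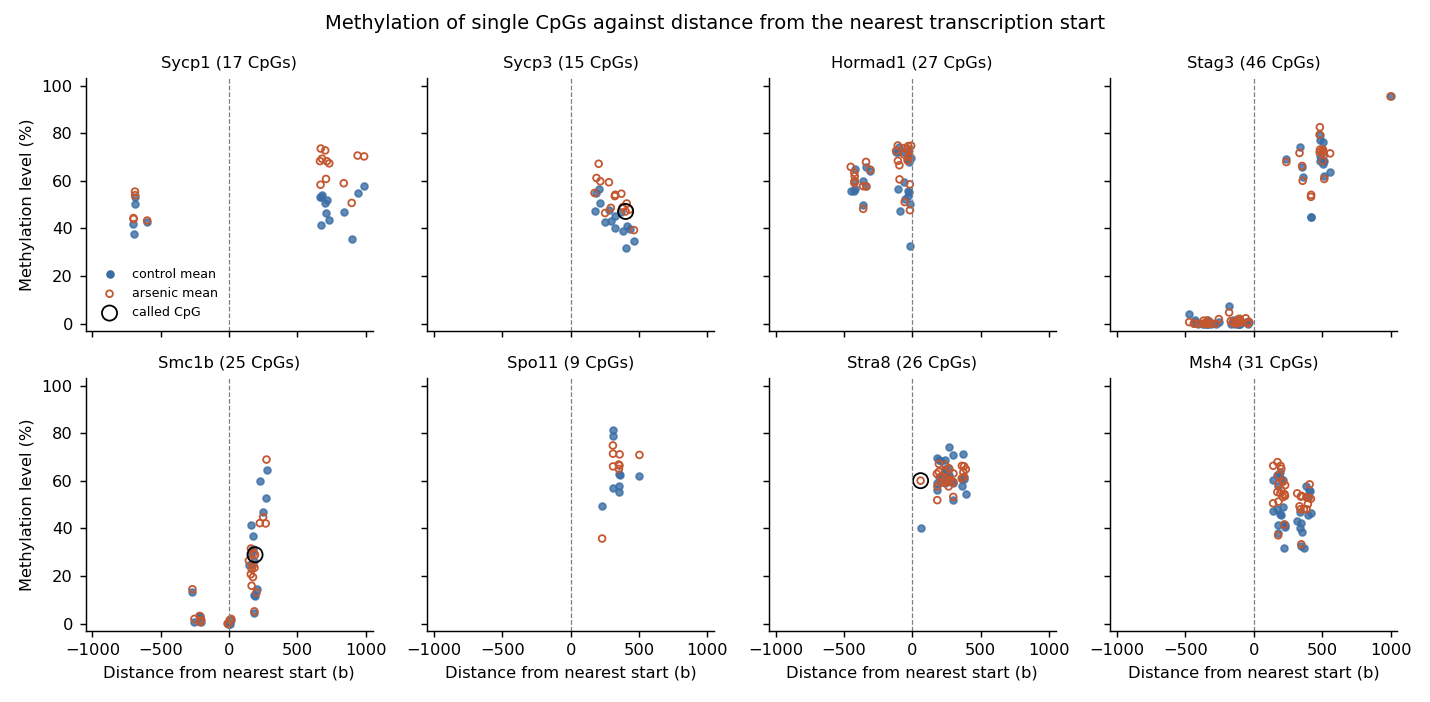
Methylation level (%) of single CpGs against the distance in bases from the nearest annotated start of the same gene (negative, upstream), as means of 5 control pools (filled) and 5 arsenic pools (open), with called CpGs ringed. All Stag3 and Smc1b CpGs upstream of the start are at or below 13.9%, and their intronic CpGs average 67.8% and 30.4%. The other 6 genes show no CpG below 10%, but only Hormad1 and Sycp1 of them were read upstream of a start.

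For the genes of meiotic entry and recombination, Stra8 had 26 CpGs, all in the intron at 61 to 392 b from the nearest start. Its levels in controls were 53.7%, 55.6%, 48.0%, 86.8% and 66.4%, and in arsenic pools 39.5%, 56.1%, 66.2%, 80.7% and 64.6%. Pools of both groups ranged over more than 38 points, with control 4 the highest and arsenic 1 the lowest. The means were 62.1% ± 15.3 and 61.4% ± 15.1 (SD, n = 5 each; difference -0.676 points, exact permutation p = 0.968, limma adjusted p = 0.997). Leaving out control 4 turned the difference to 5.50 points.

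Spo11, which makes the double-strand breaks, had only 9 CpGs. Levels were 58.9%, 55.2%, 60.7%, 68.9% and 71.1% in controls and 59.1%, 69.1%, 63.3%, 60.9% and 74.4% in arsenic pools. The ranges overlapped over most of their length, with control 2 lowest and arsenic 5 highest. The means differed by 2.39 points (exact permutation p = 0.540, limma adjusted p = 0.960), by 0.130 points without arsenic 5 and by 0.447 points without control 2. With starts of basic transcripts only, which kept 6 of the CpGs, they differed by 9.02 points. Dmc1, the recombinase that acts after Spo11, had 5 CCGG sites in its windows and no CpG of the table.

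Msh4 had 31 CpGs in its first exon, 29 of them in the coding part, at 141 to 417 b from the start. Levels were 52.1%, 32.7%, 57.4%, 62.8% and 35.3% in controls and 30.5%, 52.8%, 62.9%, 49.6% and 73.3% in arsenic pools. Arsenic 1 was the lowest pool and arsenic 5 the highest, with controls 2 and 5 close to the bottom. The means were 48.1% ± 13.4 and 53.8% ± 16.0 (SD, n = 5 each; difference 5.75 points, exact permutation p = 0.548, limma adjusted p = 0.945), and the difference was 0.888 points without arsenic 5.

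The spread between control pools varied by gene. The control SD of Sycp1, Stra8 and Msh4 stood at percentiles 98.4, 98.5 and 97.0 among the 5359 promoters with 5 or more CpGs and a level of 20% to 80%, and that of Stag3 at percentile 11.3. Reads of the opposite strands of 1 CpG in 1 pool were compared as a view of the precision. Neighbouring CpGs share reads, so these values are not independent. Over 46 member CpGs read on both strands, the plus and minus strand levels differed by a median of 18.1 points over 460 values, with a 90th percentile of 37.6 points. Among all CpGs at 20% to 80% the median was 12.8 points. Within the members the median ran from 10.4 points in Spo11 to 21.4 points in Stra8. The median lower coverage of a member pair was 24 reads, where a level of 50% has a 95% Wilson interval of 31.4% to 68.6%. The part that depth played in the pool spread was not tested.

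**Figure D3:**
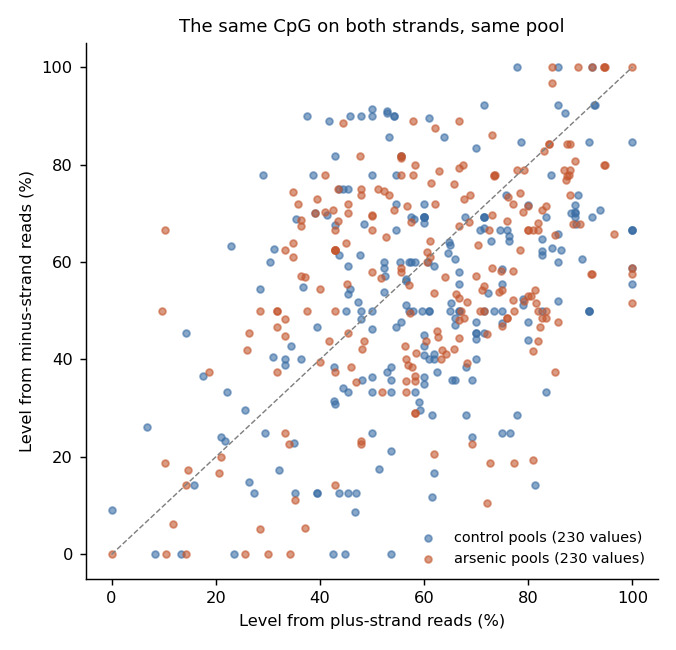
Methylation level (%) from minus-strand reads against plus-strand reads for 46 member CpGs in each of the 10 pools, 230 values in each group, with the line of equality dashed. Points of both groups scatter widely about the line, with a median difference of 18.1 points.

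At single CpGs, a logistic regression over all CpGs called a site hypermethylated or hypomethylated in arsenic pools at a q of 0.01 or less and a pooled difference of at least 10 points. It called 0 member CpGs lower, beside 1.48% of all CpGs, and 3 member CpGs higher (1.53%), beside 0.784% of all CpGs. Among CpGs within 1000 b of any start and at 10% to 90%, a range that held 80.6% of the member CpGs, the shares were 2.05% lower and 1.73% higher. The member share of higher calls, 1.53%, was near the 1.73%, but the sets are unlike. The member share was taken over all 196 member CpGs, of which 158 lay at 10% to 90%. None of the 196 member CpGs had groups that did not overlap, beside 0.474% of all CpGs lower and 0.219% higher. This regression adds the reads of a group together and takes no account of the spread between pools. limma on each CpG, which does, called 0 member CpGs and 0 of all CpGs (smallest adjusted p = 0.819). Its unadjusted p was below 0.05 for 7 of the 196 member CpGs and 82090 of all 1348062 CpGs. The overdispersion F test also called 0, with 4 of 196 and 72797 of 1348062 at an unadjusted p below 0.05.

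The 3 called CpGs lay in introns of Sycp3, Smc1b and Stra8, 1 in each. They are the capital letters in these stretches of the gene strand.
Sycp3, chr10:88460052-88460081: gagggagttggagtCGtgggctcgggcaat
Smc1b, chr15:85131760-85131789: gggccgctgtcgccCGctgtagacccgagg
Stra8, chr6:34921057-34921086: aagtactctcctacCGtttgtgttctgaga

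The Sycp3 CpG at position 88460066 of chromosome 10, 402 b after the nearest start, read 35.7%, 27.8%, 50%, 14.5% and 30.1% in controls and 32.7%, 46.8%, 50.8%, 44.3% and 61.0% in arsenic pools. The groups overlapped, with control 3 above 3 of the arsenic pools and arsenic 1 below 2 of the controls. The pooled difference was 16.7 points (logistic q = 0.00194, limma adjusted p = 0.819), and without arsenic 5 its q was 0.0385. The Stra8 CpG at position 34921071 of chromosome 6, 61 b after the nearest start, read 27.6%, 28.6%, 46.7%, 66.7% and 31.8% in controls and 46.0%, 63.6%, 56.8%, 44.2% and 89.7% in arsenic pools. Control 4, with 12 reads, exceeded 4 of the arsenic pools. The pooled difference was 21.1 points (logistic q = 0.00484, limma adjusted p = 0.819), and without arsenic 5 its q was 0.0904. The Smc1b CpG at position 85131774 of chromosome 15, 190 b after the start, read 27.3%, 10.3%, 5.26%, 14.3% and 0% in controls and 29.4%, 44.2%, 47.6%, 23.5% and 0% in arsenic pools. Control 5 and arsenic 5 both had no methylated read, of 23 and 29 reads. Its pooled difference was 19.6 points (logistic q = 0.00174, limma adjusted p = 0.832) and its q without arsenic 5 was 0.00011, while the mean of the Smc1b promoter was lower in arsenic pools.

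The pools moved in part together across genes. Averaged over the 8 genes, the level was 45.9%, 39.5%, 44.2%, 55.7% and 48.3% in controls and 39.8%, 50.6%, 50.8%, 52.0% and 60.9% in arsenic pools. Control 2 and arsenic 1 were lowest and arsenic 5 was highest, and the means were 46.7% ± 5.96 and 50.8% ± 7.50 (SD, n = 5 each), 4.08 points apart. Without arsenic 5 they were 1.56 points apart. Arsenic 5 was the highest pool in 6 of 8 members, beside 33.8% of the promoters at 20% to 80%, and arsenic 1 the lowest in 5 of 8, beside 39.5%. The arsenic SD exceeded the control SD in 5 of 8 members, beside 65.2% of those promoters.

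The marker lists showed the same pools at their ends. The promoters of 5 germ cell genes, Dazl, Ddx4, Mael, Tdrd1 and Sohlh2, averaged 42.7% in arsenic 1 and 64.7% in arsenic 5, with the other 8 pools at 51.0% to 62.9%. For 7 promoters of maternally methylated imprinted genes, which keep methylation on 1 parental copy in body cells and lose it in male germ cells, the mean was 25.0% in arsenic 1 and 45.7% in arsenic 5, with the other 8 pools at 32.0% to 38.0%. The germ cell gene promoters ranged from 37.4% (Dazl) to 66.0% (Ddx4) as means over pools, and the imprinted ones from 14.4% (Grb10) to 75.8% (Mest). The windows of the imprinted genes were set by transcription starts and not by the imprinted regions, so their means are not levels of the imprint. Germ cells that express Dazl and Ddx4 usually carry little methylation at the starts of these genes. The values here are means over 62 and 30 CpGs within 1000 b of any start, not levels at the start itself. The table holds no RNA level to set beside them. The part of cell make-up in the levels of the meiotic genes was not tested.

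**Figure D4:**
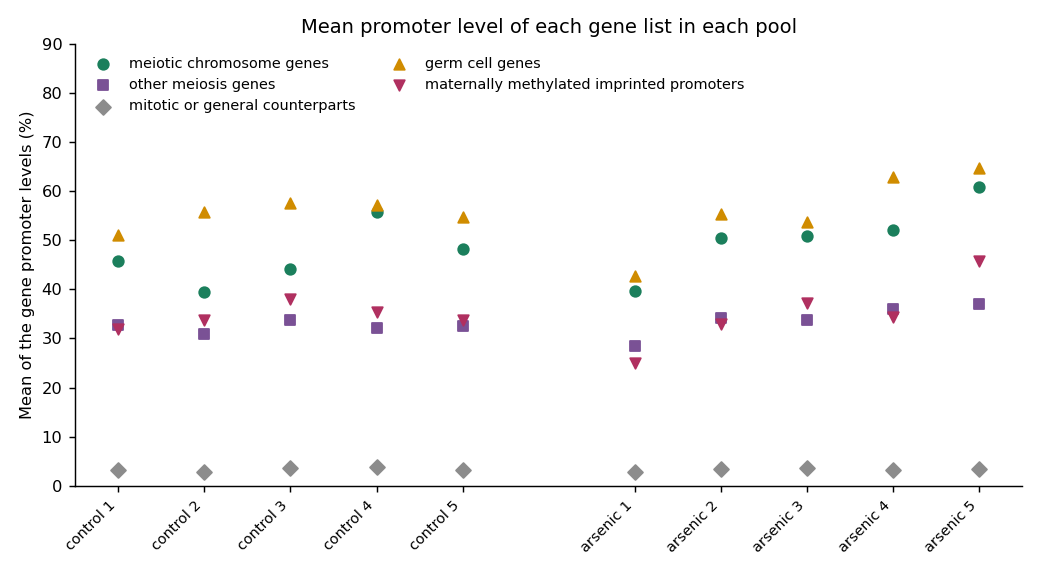
Mean promoter level (%) of each gene list in each of the 5 control and 5 arsenic pools. In the meiotic chromosome genes, germ cell genes and imprinted promoters arsenic 5 is the highest pool, and arsenic 1 is the lowest except in the meiotic chromosome genes, where it is control 2.

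The relatives of these genes that act in dividing cells stood lower as means over the CpGs read in their windows. Of 10 such genes, 8 had CpGs, all 8 had a mean below that of the lowest member, and 7 were below 10%. The cohesin genes Stag1, Stag2 and Rad21 read 0.488%, 1.219% and 0.294% as means over the 10 pools, against 27.6% for Stag3. The Stag3 mean includes its methylated intron, and its 28 upstream CpGs averaged 0.738%. The mismatch repair gene Msh3 read 0.997%, against 50.9% for Msh4, and the cohesin gene Smc3 read 19.8%. All 31 Msh4 CpGs lay 141 to 417 b after the start, in its first exon, so the Msh4 start was not compared. The positions of the CpGs read in the relatives were not compared either. None of these relatives passed limma over all promoters. Of the 8, only Top2a had an unadjusted limma p below 0.05, beside the 5.45% of all promoters. By the exact permutation test it was Msh3 instead (p = 0.0317), beside 6.21% of all promoters.

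Of 41 symbols listed for other meiosis genes, 35 were in the annotation and 25 had CpGs. The list can hold more than 1 symbol for a gene, so a symbol not found need not be a missing gene. The levels of the 25 ran from 0% to 90.6%, with 13 at 20% to 80% and 9 below 10%. The highest were Rec114 (90.6%), a partner of Spo11 in break formation, and Hfm1 (77.7%), a crossover helicase. The lowest were Mei4 (0%, 2 CpGs), which acts with Rec114, and Terb1 (0.844%), which ties telomeres to the nuclear envelope. None passed limma (smallest adjusted p = 0.901), 0 had an unadjusted p below 0.05, and the smallest p were those of Mlh3 (0.106) and Syce2 (0.141). The median difference over the list was 0.348 points.

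**Figure D5:**
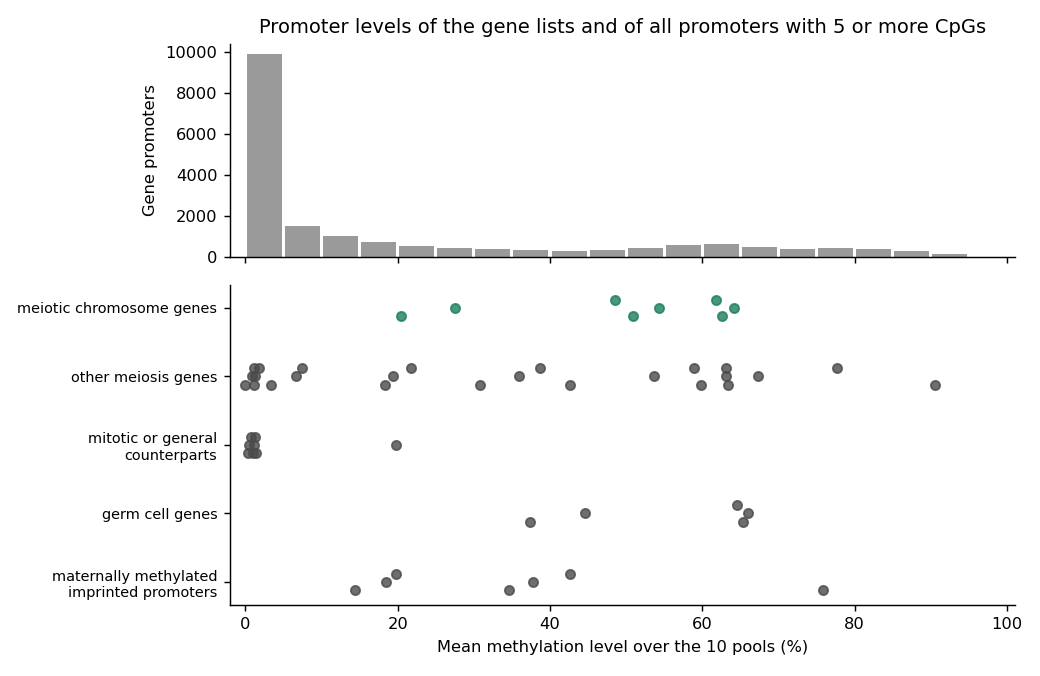
Upper panel, number of gene promoters with 5 or more CpGs in each 5-point step of the mean level (%) over the 10 pools. Lower panel, mean level of each gene of 5 lists, where the meiotic chromosome genes lie between 20.4% and 64.2% and 7 of the 8 mitotic counterparts lie below 10%.

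The letters CACGTG (E-box) and TCCCGC (E2F) were searched on both strands in RefSeq promoters of GRCm38, from 250 b before to 50 b after a start. Of the members 9 matched an entry, and Spo11 did not. CACGTG occurred in 4 of 9, TCCCGC in 7 of 9, and both in Hormad1, Sycp1, Stag3 and Sycp3, beside 8.09%, 22.1% and 2.65% of 27025 genes. CACGTG reads the same on both strands. A match describes letters only. The table read CpGs inside these letters in the windows around the starts, of which only the Hormad1 ones lie in the RefSeq promoters searched. In the Hormad1 stretch, the CACGTG at 55 b before the start averaged 51.7%, the one at 18 b before it 54.4% on the plus strand and 40.1% on the minus strand, and the TCCCGC at 94 b before it 70.3% and 54.0% on the plus and minus strands. The CACGTG in the Sycp1 intron, 709 b after the nearest start, averaged 53.6%, while the TCCCGC upstream of Stag3 read 0.702%. In the coding exon of Msh4, TCCCGC read 39.8% at 366 b after the start, 59.98% at 213 b on the plus strand and 51.0% for the same CpG on the minus strand. Across all promoter windows the median level was 1.21% for 2450 CpGs in CACGTG and 0.714% for 9131 CpGs in TCCCGC, beside 1.15% for all 488571 CpGs.

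Among 5330 other promoters with 5 or more CpGs and a level of 20% to 80%, those whose values over the 10 pools were most like the member mean were Gm22500 (Pearson r = 0.973), Gm34250 (r = 0.946) and Naa11 (r = 0.944). The median r of all these promoters was 0.328. The pools share depth and overall level, so these values are a description. Naa11 ranged from 27.7% in arsenic 1 to 88.4% in arsenic 5.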

How the data were processed

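By the submitters' processing notes, the authors trimmed reads with Trim Galore 0.6.5, aligned them to mm10 with Bismark 0.22.3 and combined CpGs with methylKit 1.22.0, strands kept apart and with at least 10 reads in all 10 pools. The deposited table holds read counts per CpG: coverage, methylated and unmethylated counts in each pool. Per the study's methods, a low-depth arsenic pool was excluded by the authors. CpGs outside chromosomes 1 to 19, X and Y (1039) were left out, leaving 1348062.

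Levels were computed as methylated counts over coverage. Promoters were tested with limma 3.58.1 on log2 ratios of summed methylated to unmethylated counts (1 read added to each), with Benjamini-Hochberg adjustment over all 22986 promoters, and by exact two-sided permutation over 252 splits. Single CpGs were tested by logistic regression on group, limma and an F test scaled for overdispersion. Scripts ran under Python 3.11.15 and R 4.3.3 and were tested on simulated data.

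The members, gene lists and sequences were chosen with earlier results of these data known. Named were all members, all called member CpGs, the 2 highest, 2 lowest and 2 smallest p of the meiosis list, and the 3 promoters most like the member mean. Runs of CpGs (gaps up to 120 b) and the counterparts Top2a and Msh3 were chosen after values were seen. Replicate numbers did not pair the pools. Single values of some genes of the list of relatives are not reported here.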

Additional observations from a re-analysis of the deposited data

How the results depend on the processing

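No member promoter passed limma in any of the 146 combinations of gene and alternative that were fitted (smallest adjusted p = 0.681), and 0 of all promoters did, with the replicate block as well. Coverage weighting gave values with no test. With it, the direction held in 141 of 154 combinations and turned in 13. Some of these could not turn: the replicate block and limma on the mean level changed the test but used the same levels. Leaving out the CpGs in the highest 0.1% of coverage removed no member CpG, so the differences there were also unchanged. Stra8 turned to 0.473 points with coverage weighting, 1.13 with strands merged, 19.8 in the study's promoter window (1 CpG) and, without single pools, to between -5.48 and 5.50 points. Smc1b turned to 1.11 with coverage weighting, 0.212 at a coverage of at least 20 or 30 reads and 0.330 in the study's window. Stag3 turned to -0.00891 in the study's window and ranged from -0.712 to 1.74 points without single pools, the lowest without arsenic 5. The cause was not tested. Member CpGs called higher numbered 1 (0.51%, beside 0.278% of all CpGs) at a difference of at least 20 points, 1 (1.2%, beside 0.784%) in the study's window, 1 at a coverage of at least 20 or 30 (1.37% and 2.33%, beside 1.28% and 1.58%), 5 with strands merged (3.33%, beside 0.793%) and 0 by the overdispersion F test, by limma and by limma with the replicate block. Without single pools they ranged from 1 (0.51%, beside 0.438% of all CpGs, without arsenic 5) to 7 (3.57%, beside 1.35%, without arsenic 1). Those called lower numbered 1 without control 3 and 1 without arsenic 2 (0.51% each, beside 1.51% and 1.54% of all CpGs). Without any other single pool 0 were called lower, beside 1.11% to 1.87% of all CpGs. The block rests on numbers only: same-numbered pools correlated at -0.024 to 0.067 over 5359 promoters, and 1 of 5 correlated best with its own number. The mean over the members kept its sign throughout, from 1.56 to 6.84 points without single pools. Member CpGs had a median lowest coverage of 15.5 reads.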

Other observations

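Within Spo11, CpGs near its different starts did not move alike. The 3 CpGs 230 to 310 b after the first start averaged 69.8% ± 7.83 in controls and 58.9% ± 5.60 in arsenic pools, a difference of -10.9 points (SD, n = 5 each). The 5 CpGs 310 to 358 b after the second start averaged 59.1% ± 13.7 and 68.2% ± 10.3, a difference of 9.06 points. These runs were picked after their values were seen, the groups overlap in both, and the difference between them was not tested.

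All 17 CpGs of Sycp1 and all 15 of Sycp3 had a pooled level that was higher in arsenic pools, and over the members 136 of 196 CpGs did. Neighbouring CpGs share reads, so these counts are not independent. The share of all CpGs that were higher was not counted. Without arsenic 5 the median difference over the 8 member genes was 0.0851 points.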
